A study of Mus musculus with 4 samples.

Results

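The genes described here make, load, release, take up and receive the inhibitory transmitters glycine and GABA. They are 9 of the 24015 gene symbols in the deposited count table, taken by symbol: the transporters Slc6a5, Slc6a9 and Slc32a1, the GABA-synthesising enzymes Gad1 and Gad2, the glycine receptor subunits Glra1, Glra3 and Glrb, and the scaffold Gphn. All 9 were in the table and all 9 passed the filter on low counts. The set was chosen by function with the genotype contrast of these libraries in view, above all the level and fold change of Slc6a5, so its genotype values are given here as a description. Cerebellum was micro-dissected from C57BL/6N mice at postnatal day 140 to 150, and its messenger RNA was sequenced. Mice heterozygous for an Arid1b knockout (the label HT) were set beside wild type littermates (WT), with 1 male and 1 female library of each genotype, 4 libraries in all, named HT male, HT female, WT male and WT female below. No treatment is named in the labels. The part of Arid1b that was deleted, and the animal behind each library, are not named in those labels. With 1 library per sex and genotype, no p-value measures a spread between like libraries. The genotype and sex tests use the sex by genotype difference as their error, with a variance shared in part over genes.

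Glycine and GABA open chloride channels and so dampen the firing of the receiving neuron. The vesicular carrier made from Slc32a1 loads both transmitters into synaptic vesicles, GABA comes from glutamate through the enzymes of Gad1 and Gad2, and glycine is recovered into nerve terminals by the transporter of Slc6a5 and into glia mostly by that of Slc6a9. In the cerebellum, Purkinje cells, basket cells and stellate cells release GABA, Golgi cells release GABA and glycine together, and some neurons of the deep nuclei are glycinergic. The brainstem and spinal cord are rich in glycinergic neurons and in the alpha1 glycine receptor. Glycine receptors combine alpha subunits with the beta subunit of Glrb, which binds gephyrin, the scaffold made from Gphn that also holds many GABA-A receptors at synapses.

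To show what lies before the start sites of genes that varied widely and little here, the 250 bases upstream of a RefSeq start are given for Slc6a5 (the first of its starts) and Glra3, whose levels differed widely between libraries, and for Gad1 and Gphn, which were nearly even. The sequences are from RefSeq's tables on GRCm38.p6, not the mm9 build named for the counts, and 8 of the 9 genes matched an entry. Capitals mark the GC box GGGCGG, the E-box CAGCTG and the letters TATAAA, each searched on both strands.
Slc6a5 (chr7:49910049-49910298, + strand): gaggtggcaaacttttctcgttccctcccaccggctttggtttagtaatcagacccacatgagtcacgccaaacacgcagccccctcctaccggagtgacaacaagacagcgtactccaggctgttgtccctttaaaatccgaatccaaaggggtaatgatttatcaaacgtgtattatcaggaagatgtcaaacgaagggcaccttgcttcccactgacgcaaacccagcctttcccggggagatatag
Glra3 (chr8:55940168-55940417, + strand): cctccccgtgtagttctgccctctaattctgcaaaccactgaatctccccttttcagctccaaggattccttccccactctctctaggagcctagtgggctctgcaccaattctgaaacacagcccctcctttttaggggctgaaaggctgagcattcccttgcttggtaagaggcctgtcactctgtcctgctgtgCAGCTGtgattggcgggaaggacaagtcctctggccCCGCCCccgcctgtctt
Gad1 (chr2:70561879-70562128, + strand): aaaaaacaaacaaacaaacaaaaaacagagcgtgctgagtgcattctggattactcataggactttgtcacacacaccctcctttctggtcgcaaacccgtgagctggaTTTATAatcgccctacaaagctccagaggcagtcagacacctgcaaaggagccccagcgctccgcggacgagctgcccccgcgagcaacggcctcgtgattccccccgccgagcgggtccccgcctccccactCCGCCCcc
Gphn (chr12:78226405-78226654, + strand): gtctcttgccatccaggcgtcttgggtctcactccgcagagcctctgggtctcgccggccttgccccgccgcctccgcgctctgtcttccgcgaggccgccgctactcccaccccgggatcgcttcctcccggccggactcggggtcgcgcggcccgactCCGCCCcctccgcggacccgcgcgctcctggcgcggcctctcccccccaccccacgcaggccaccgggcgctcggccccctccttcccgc
The Slc6a5 window held none of these motifs. Neither did the windows of Slc32a1 and Gad2, not shown, whose highest library was 1.29-fold and 1.49-fold the lowest. Glra3 held an E-box starting 53 bases and a GC box starting 17 bases before the start site. Gad1 held a TATAAA match at 141 bases and a GC box at 8 bases, and Gphn a GC box at 90 bases. Of 32851 such windows over all genes, 10756 held the GC box (32.7%), 4271 the E-box and 4063 TATAAA (12.4%). The GC content was 50.4% for the Slc6a5 window, 56.0% for Glra3, 58.0% for Gad1 and 77.2% for Gphn, against a median of 52.4% over all windows.

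The libraries held 15950899 to 20616219 counts. Levels are counts scaled to a common library total (CPM). The targeted gene, Arid1b, stood at 52.9 CPM in HT male and 55.8 CPM in HT female, below WT male with 69.9 CPM and WT female with 71.0 CPM. Xist, at 0.61 to 1.23 CPM in males and 233 to 403 CPM in females, and the Y-linked Ddx3y, at 52.3 to 53.3 CPM in males and 0.0627 to 0.146 CPM in females, matched the labelled sexes. Markers of cerebellum were abundant in every library, with summed levels of 3983 to 5991 CPM for 12 granule cell genes and 3983 to 5492 CPM for 14 Purkinje cell genes. The 24 brainstem and midbrain neuron markers summed lowest in WT female, to 156 CPM, against 249.3 CPM in WT male, 303 CPM in HT female and 332 CPM in HT male. WT female was lowest for 11 of these 24 markers, and for 32.0% of all tested genes. The Hox genes among the markers were all highest in WT female. Slc6a3 and Tph2 were picked after their values were seen. In WT female Slc6a3, the dopamine transporter, had no count, where 3 counts would be 0.146 CPM, and the other libraries had 15.01 to 34.6 CPM. Tph2, the enzyme of serotonin synthesis in the brain, stood at 5.63 CPM there and at 49.5 to 52.2 CPM in the other libraries. Genotype values of the 9 genes are therefore given with and without WT female below. In bulk tissue, fewer cells of a type and less RNA per cell cannot be told apart.

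Per kilobase of the longest annotated transcript, the 9 genes spanned a wide range and kept 1 order in all 4 libraries. Gad1 was highest, at 158 ± 8.80 CPM per kilobase (mean ± SD over the 4 libraries). Glrb followed at 75.8 ± 9.92, Slc32a1 at 58.9 ± 7.46, Slc6a9 at 48.1 ± 2.11, Gad2 at 39.8 ± 6.76 and Gphn at 30.8 ± 1.34 CPM per kilobase. Glra1 came far lower at 4.42 ± 2.66, then Slc6a5 at 2.19 ± 1.30 and Glra3 at 0.383 ± 0.219 CPM per kilobase. The beta subunit of the glycine receptor was thus measured well above both alpha subunits of this set. By their ranges over libraries, neighbours overlapped for Glrb (64.2 to 87.8) with Slc32a1 (52.8 to 68.0), for Gad2 (29.8 to 44.2) with Gphn (29.5 to 32.6), and for Glra1 (1.10 to 7.36) with Slc6a5 (0.803 to 3.85). With the union of all annotated exons as the length, the mean of Slc32a1 passed that of Glrb (58.9 against 49.3 CPM per kilobase). The mean of Gad2 passed that of Slc6a9 (38.9 against 32.6). The order then differed between libraries. Glrb stayed above Slc32a1 in WT male (57.1 against 52.8), and Slc6a9 above Gad2 in WT female (30.6 against 29.1).

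**Figure D1:**
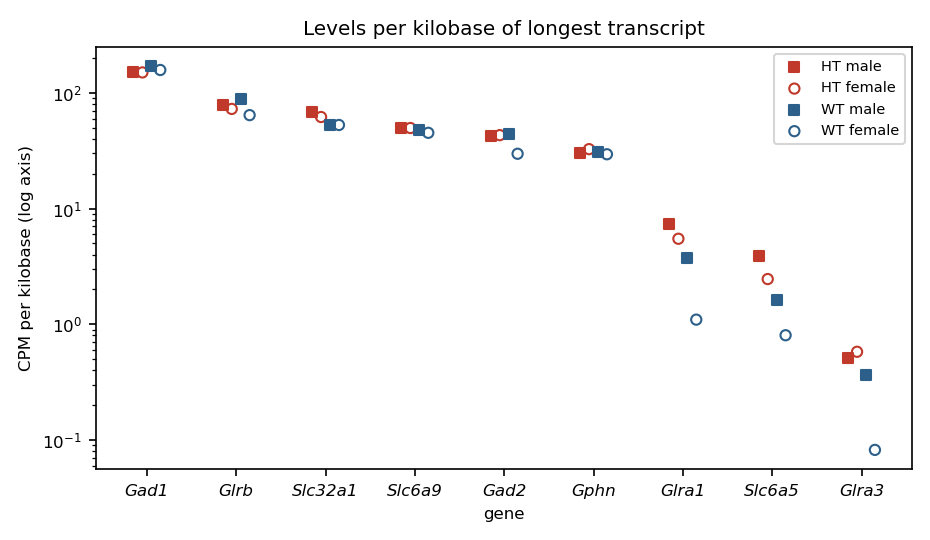
Level of each gene in CPM per kilobase of its longest transcript, on a log axis, with 1 point per library (red heterozygote, blue wild type, filled squares male, open circles female). The 6 abundant genes lie between 29.5 and 170 CPM per kilobase, while Glra1, Slc6a5 and Glra3 lie lower and spread most, with WT female lowest for each.

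Slc6a5, the neuronal glycine transporter, had each heterozygote above each wild type. HT male had 27.2 CPM, HT female 17.4 CPM, WT male 11.5 CPM and WT female 5.68 CPM. The counts behind these values were 552, 277, 190 and 117, and their 95% Poisson intervals, which cover counting error only, did not touch between any 2 libraries. Within each genotype the male lay above the female, and the groups did not overlap. The heterozygote level was 2.36-fold that of the wild type between males and 3.06-fold between females, and the fitted log2 fold change was 1.42 ± 0.18 (SE). That value was 0.96 once WT female was left out, and 1.98 once WT male was.

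Slc6a9, the glycine transporter found largely on astrocytes, was nearly level. Each heterozygote had 173 CPM, WT male 167 CPM and WT female 157 CPM, a log2 fold change of 0.09 ± 0.10 (SE) that was 0.046 without WT female. The groups did not overlap, but the counting intervals of HT male and WT male did. Exons of Slc6a9 overlap those of Ccdc24 on the opposite strand over 27.8% of their length on GRCm38, and the labels do not say whether counting used strand. Ccdc24 itself had 21 to 50 counts per library against 2749 to 3500 for Slc6a9.

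Slc32a1, the vesicular carrier shared by GABA and glycine neurons, was modestly higher in both heterozygotes. HT male had 190 CPM and HT female 173 CPM, and each wild type had 148 CPM. The 2 wild types differed by less than counting error, and the groups did not overlap. The log2 fold change was 0.30 ± 0.10 (SE), and it was 0.23 to 0.36 with each library left out in turn. Unlike Slc6a5, it was as large without WT female (0.30). Exons of Slc32a1 overlap those of Gm14205 on the opposite strand over 24.9% of their length on GRCm38, and Gm14205 is not in the count table.

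The enzymes of GABA synthesis differed from each other in how they varied. Gad1, whose enzyme is spread through the whole neuron, had 550 CPM in HT male, 541 CPM in HT female, 613 CPM in WT male and 568 CPM in WT female. It was the 1 gene of the set with both heterozygotes below both wild types, by a log2 fold change of -0.11 ± 0.10 (SE) that was -0.17 without WT female and -0.056 without WT male. Gad2, the form tied to nerve terminals, had 242 CPM in HT male, 248 CPM in HT female, 254 CPM in WT male and 171 CPM in WT female. The first 3 of these libraries were alike and the groups overlapped. The log2 fold change of 0.23 ± 0.14 (SE) for Gad2 came to -0.055 without WT female.

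The glycine receptor alpha subunits had the widest spread of the set. Glra1, the alpha1 subunit that predominates in adult brainstem and spinal cord, had 17.6 CPM in HT male, 13.1 CPM in HT female, 8.93 CPM in WT male and 2.62 CPM in WT female. Its libraries stood in the same order as those of Slc6a5, and the groups did not overlap. Exons of Glra1 overlap those of Gm12236, absent from the count table, on the opposite strand over 5.84% of their length on GRCm38. The fitted log2 fold change of 1.59 ± 0.32 (SE) for Glra1 shrank to 0.78 without WT female and grew to 2.55 without WT male.

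Glra3, the alpha3 subunit, was the scarcest of the set. It had 67 counts (3.30 CPM) in HT male, 60 (3.76 CPM) in HT female, 39 (2.37 CPM) in WT male and 11 (0.534 CPM) in WT female. The counting intervals of the males overlapped, at 2.56 to 4.19 CPM in the heterozygote and 1.69 to 3.24 CPM in the wild type, so a difference between the males was not detectable at this depth. The log2 fold change of 1.47 ± 0.54 (SE) for Glra3 was 0.57 without WT female, and 2.71 without WT male.

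Glrb and Gphn, the beta subunit and its scaffold, did not separate the genotypes. Glrb had 237 CPM in HT male and 220 CPM in HT female, and its 2 wild types lay on both sides of these, with 266 CPM in WT male and 195 CPM in WT female. The log2 fold change was 0.01 ± 0.11 (SE), and it was -0.22 without WT female and 0.24 without WT male. Gphn had 108 CPM in HT male, 116 CPM in HT female, 110 CPM in WT male and 105 CPM in WT female, a log2 fold change of 0.06 ± 0.10 (SE) that was 0.031 without WT female, 0.12 without HT male and -0.0012 without HT female. The highest Gphn library was 1.11-fold the lowest.

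**Figure D2:**
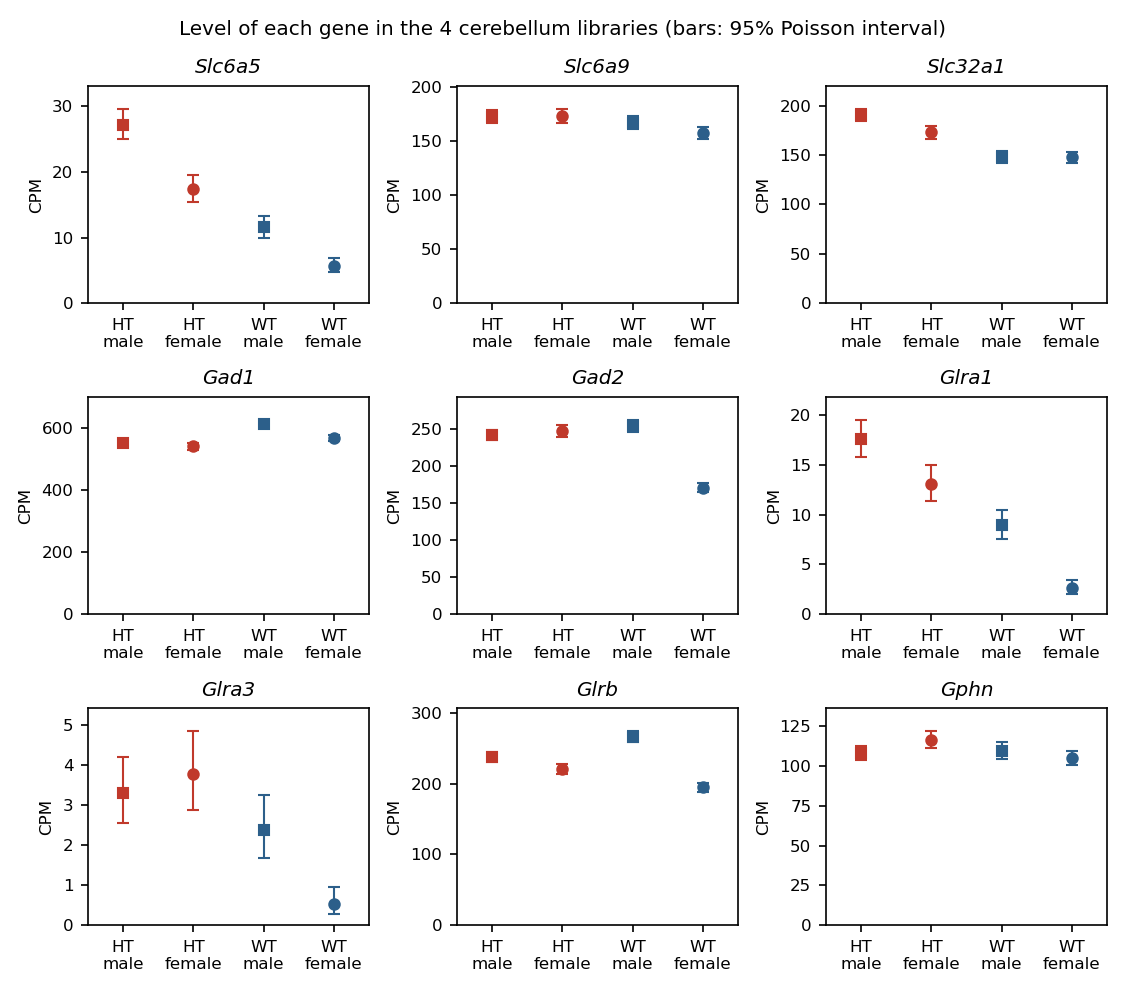
Level of each gene in CPM in the 4 libraries (red heterozygote, blue wild type, squares male, circles female), with 95% Poisson intervals of the counts and each axis from 0. Slc6a5 and Glra1 step down from HT male (27.2 and 17.6 CPM) to WT female (5.68 and 2.62 CPM), while Gphn stays between 105 and 116 CPM.

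Set against all genes, the 9 genes held a group of large spread and a group of small spread. The highest library was at least 2-fold the lowest for 3 of the 9 genes, namely 4.79-fold for Slc6a5, 6.72-fold for Glra1 and 7.05-fold for Glra3. Over the 15117 tested genes 11.3% had such a range. Nothing is read from this count, since the level and fold change of Slc6a5 had a part in the choice of the set. The other 6 ranged from 1.10-fold for Slc6a9 to 1.49-fold for Gad2. WT female was the lowest library for 8 of the 9 genes, all but Gad1, and for 32.0% of all tested genes. For Slc6a9, Slc32a1 and Gphn its counting interval overlapped that of the next library. A low WT female raises the genotype value in view at the choice of the set, so nothing is read from this count either.

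Between genotypes, edgeR's quasi-likelihood test put 1 of the 9 genes, Slc6a5, past the threshold (adjusted p of 0.05), against 0.0198% of all tested genes. Its adjusted p of 0.0473 lay just under that threshold. Nothing is read from this count since the contrast had a part in the choice of the set. Both heterozygotes lay above both wild types for 5 of the 9 genes, where 22.1% of all tested genes did. For 1 of the 9 genes they lay below, where 22.6% did. These counts come from the contrast in view at the choice, and nothing is read from them either. The median log2 fold change was 0.23 over the 9 genes and 0.01 over all tested genes. Without WT female the median was 0.05 over the 9 genes, with 6 of 9 higher, and 0.00376 over all genes tested in that fit. DESeq2 had 2 of the 9 genes past the threshold, Slc6a5 and Glra1, where 0.225% of all genes were. With no filter on low counts edgeR had 3 of the 9 genes past it (Slc6a5, Glra1 and Glra3) and 2.92% of all genes. Both were 0 (0.0%) when genes needed 1 CPM in 2 or more libraries, with no sex term, and without HT male. Without HT female edgeR had 0 of the 9 and 0.0193% of all genes. Without WT female it had 3 of the 9 and 4.3% of all genes, and without WT male 5 of the 9 and 17.5% of all genes. Such fits of 3 libraries have genotype as their 1 term, and the lone library is assumed to vary like the pair.

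**Figure D3:**
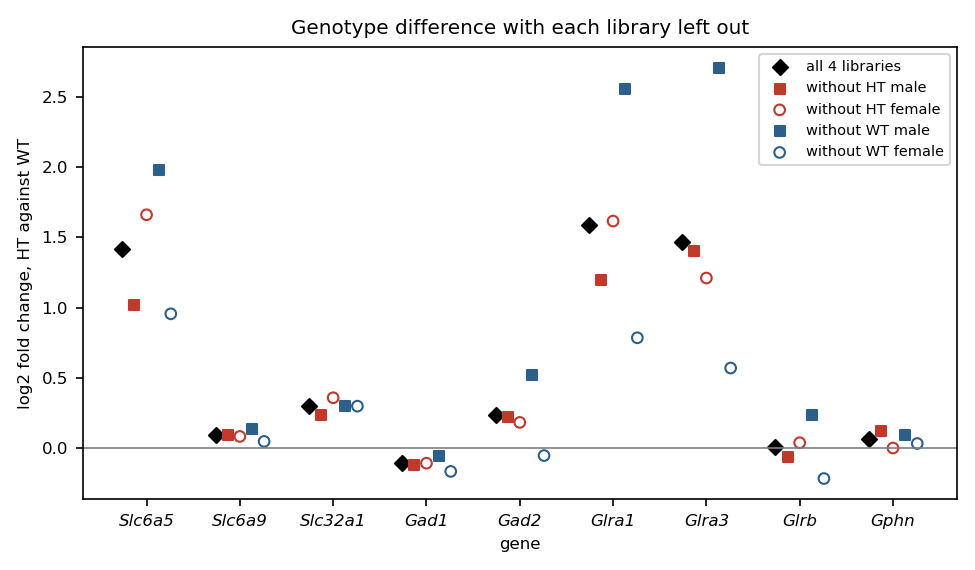
Fitted log2 fold change of each gene, heterozygote against wild type, over all 4 libraries (black diamonds) and with each library left out. Slc6a5 stays between 0.96 and 1.98, Glra1 between 0.78 and 2.55 and Glra3 between 0.57 and 2.71, each lowest without WT female, while Gad2 lies below 0 and Glrb lowest without that library.

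Ratios between 2 genes of the same library do not depend on the scaling of that library. The Slc6a5 count was 0.143 times the Slc32a1 count in HT male, 0.10 times in HT female, 0.0782 times in WT male and 0.0384 times in WT female. The difference in mean log2 ratio between the genotypes was 1.13 (SD of the 2 libraries 0.36 in heterozygotes and 0.72 in wild types), and 0.62 without WT female. Slc6a5 relative to Slc6a9 was 0.158 and 0.101 in the heterozygotes against 0.0691 and 0.0361 in the wild types, male first. The count of Glra1 relative to Glrb was 0.0741 and 0.0595 in the heterozygotes against 0.0336 and 0.0135 in the wild types, male first. In each of these 3 ratios both heterozygotes were above both wild types and WT female was lowest. The genes divided by varied far less than Slc6a5 and Glra1, so these ratios largely restate the levels above. Slc6a5 had a part in the choice of the set, and nothing more is read from the ratios. Gad1 relative to Gad2 behaved otherwise, with 2.27, 2.19 and 2.41 in the heterozygotes and WT male and 3.32 in WT female. Glrb relative to Gphn overlapped between the genotypes, at 2.20 and 1.89 in the heterozygotes and 2.42 and 1.85 in the wild types.

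The contrast of females with males was not itself used in the choice of the set and was tested over all genes. It draws on the same libraries, however. A low level in WT female raises the genotype value and lowers the sex value together. The counts of the 9 genes are therefore a description here too. By edgeR's quasi-likelihood test 0 of the 9 genes passed, where 0.0595% of all genes did, and DESeq2 called 0 of 9 and 0.0397% of all genes. At an unadjusted p under 0.05 edgeR had 3 of the 9 (Slc6a5, Glra1 and Glrb), where 3.82% of all genes were. Slc6a5 had the smallest adjusted p of the set, 0.771, with a log2 fold change of -0.82 ± 0.18 (SE), lower in the female of each genotype. Glra1 had -1.02 ± 0.32 (SE) and Glrb -0.28 ± 0.11 (SE), both with an adjusted p of 0.994 in edgeR and lower in the female of each genotype. With WT female left out and sex as the 1 term, Slc6a5 was at -0.16 and Glra1 at -0.02. With HT female left out they were at -1.77 and -2.33, and 3 of the 9 genes (Slc6a5, Glra1 and Glra3) were past the threshold, as were 3.92% of all genes. With no filter on low counts 2 of the 9, Slc6a5 and Glra1, were past it, and 0.253% of all genes. Gad1 (-0.07 ± 0.10, SE), Slc32a1 (-0.07 ± 0.10, SE), Slc6a9 (-0.04 ± 0.10, SE) and Gphn (0.02 ± 0.10, SE) were near 0.

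Whether the genotype ratio itself differed between the sexes was also tested, in a fit where the sex effect is the residual. Of the 9 genes 0 passed in edgeR's quasi-likelihood test (adjusted p of 0.998 for each), where 0.0198% of all genes did. At an unadjusted p under 0.05 there were 0 of the 9, where 3.55% of all genes were, and DESeq2 called 0. With 1 library per sex and genotype, the ratios still lay apart for the scarce receptor genes. Glra3 had a log2 ratio of 0.46 in males and 2.59 in females, and Glra1 had 0.97 and 2.28. For Slc6a5 they were closer, at 1.23 in males and 1.60 in females. Gad2 (-0.07 in males, 0.53 in females), Glrb (-0.16 and 0.18) and Gphn (-0.02 and 0.15) lay on opposite sides of 0 in the sexes. Slc6a5, Slc6a9, Slc32a1, Glra1 and Glra3 were higher in the heterozygote of both sexes, 5 of 9 genes, where 28.8% of all tested genes were. They are the same 5 genes that had both heterozygotes above both wild types, and nothing is read from the count.

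**Figure D4:**
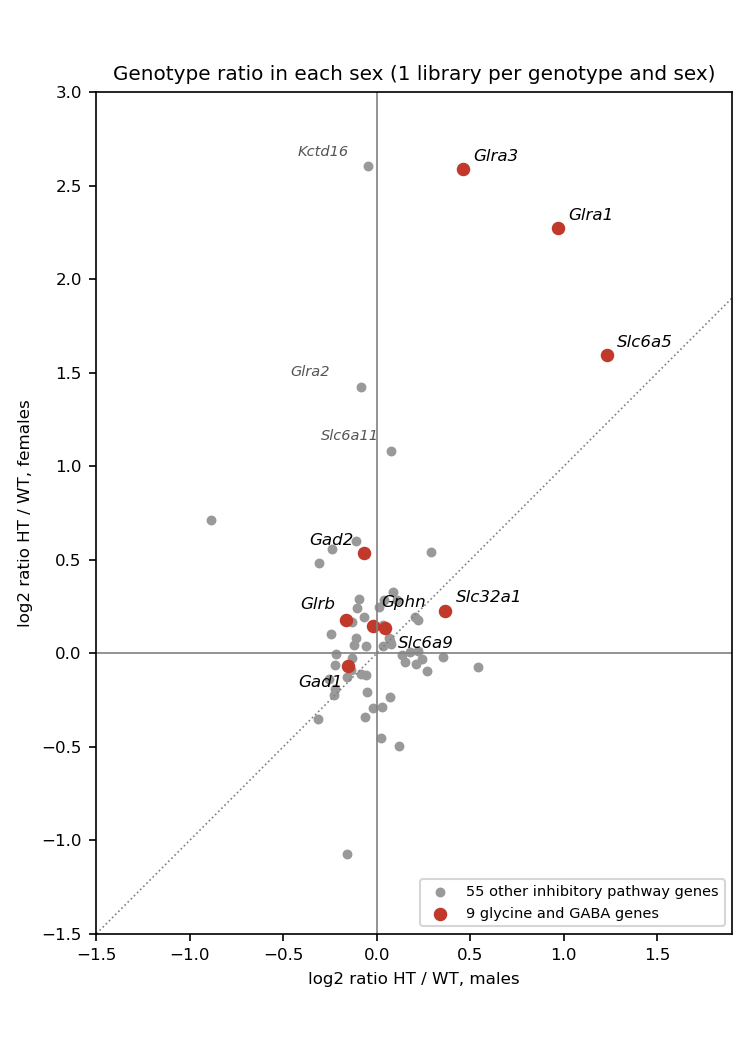
Log2 ratio of heterozygote to wild type in males (horizontal) and females (vertical), with the 9 genes in red, 55 other genes of inhibitory transmission in grey and the line of equal ratios dotted. Slc6a5 lies nearest that line among the far points, while Glra1, Glra3, Glra2, Kctd16 and Slc6a11 lie above it, with larger ratios in females.

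The other genes of glycine and GABA metabolism, uptake and reception were taken from 5 lists of 60 genes in all, of which 55 were tested. None of the 55 passed between genotypes in edgeR's quasi-likelihood test, and DESeq2 called 0. At an unadjusted p under 0.05 there were 2 of 55, Mdga1 and Kctd12, where 11.7% of all tested genes were. The fitted change was upward for 31 and downward for 24, with a median of 0.06, and without WT female 27 were upward and the median was -0.02. Between the sexes 0 of the 55 passed in edgeR and 0 in DESeq2, with 2 at an unadjusted p under 0.05 (3.82% of all genes). For the sex by genotype difference 0 passed in either tool, with 6 at an unadjusted p under 0.05 (3.55% of all genes).

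Among the glycine receptor subunits outside the set, Glra2, the alpha2 subunit known from the immature brain, had 13.1 CPM in HT male, 15.3 CPM in HT female, 13.9 CPM in WT male and 5.63 CPM in WT female. As with Gad2, the other 3 libraries were alike. Glra4 was scarce, with 0.838 CPM in HT male, 0.627 CPM in HT female, 1.64 CPM in WT male and 0.34 CPM in WT female, and its groups overlapped. Of the glycine receptor genes, Glra1, Glra2, Glra3, Glra4 and Glrb all had their lowest level in WT female, while Glra1 and Glra3 alone had both heterozygotes above WT male.

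Of 12 genes that handle GABA, 6 had a positive and 6 a negative log2 fold change (median -0.03). Slc6a11, the GABA transporter GAT-3 of astrocytes, had 406 CPM in HT male, 470 CPM in HT female, 384 CPM in WT male and 222 CPM in WT female, so that its log2 ratio was 0.08 in males and 1.08 in females. Glul, the glutamine synthetase of glia, had a log2 fold change of 0.21 ± 0.11 (SE), and Slc38a5, a glutamine carrier, -0.66 ± 0.34 (SE). The groups overlapped for Slc38a5, with 5.92 CPM in WT female and 2.17 to 2.76 CPM in the other libraries. Of 10 tested genes of 12 that make or cleave glycine or carry it, 6 had a positive and 4 a negative value (median 0.07), and 5 of 10 were positive without WT female. Amt and Shmt2, enzymes that break down and make glycine, had -0.23 ± 0.14 (SE) and -0.20 ± 0.13 (SE), Psph of serine synthesis 0.17 ± 0.16 (SE) and the amino acid carrier Slc7a10 0.12 ± 0.12 (SE). None of the 10 lay farther from 0 than Amt.

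Of 18 tested genes of 21 at the inhibitory postsynapse, 13 had a positive and 5 a negative log2 fold change, with a median of 0.07. Without WT female 9 were positive and the median was -0.02. Mdga1, which binds neuroligin 2, averaged 37.9 ± 1.03 CPM over the heterozygotes (SD, n = 2) and 28.4 ± 2.72 CPM over the wild types (SD, n = 2), with no overlap and a log2 fold change of 0.42 ± 0.14 (SE). Gabarapl1, of the family that traffics GABA-A receptors and forms autophagosomes, had 0.20 ± 0.10 (SE), Clptm1, which retains GABA-A receptors in the cell, 0.20 ± 0.11 (SE), and Lhfpl4, an auxiliary subunit of those receptors, 0.16 ± 0.11 (SE). Of 13 genes of GABA-B receptors and chloride transport, 5 had a positive and 8 a negative value (median -0.04). Kctd12, an auxiliary subunit of the GABA-B receptor, averaged 107 ± 0.518 CPM over the heterozygotes (SD, n = 2) and 135 ± 1.82 CPM over the wild types (SD, n = 2), again with no overlap and with a log2 fold change of -0.33 ± 0.10 (SE). Its relative Kctd16 had 1.23 CPM in HT male, 1.44 CPM in HT female and 1.28 CPM in WT male, but 3 counts in WT female. The chloride importer Slc12a2 had -0.19 ± 0.10 (SE) and the kinase Stk39, which acts on chloride carriers, 0.20 ± 0.10 (SE).

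Of 11854 genes outside the set with a mean of at least 5 CPM, those whose centred log2 CPM profile lay nearest to that of Slc6a5 over the 4 libraries were Sv2c, Dbh, Icam5, Sstr1, Zdhhc22 and Drd2, with root mean square differences of 0.17 to 0.25 log2 units. Sv2c, a synaptic vesicle glycoprotein, had 31.4 CPM in HT male, 21.9 CPM in HT female, 18.1 CPM in WT male and 6.69 CPM in WT female. Dbh, the enzyme that makes noradrenaline, had, in the same order, 21.7, 16.7, 13.6 and 4.51 CPM. Drd2, the dopamine D2 receptor, had 11.3, 10.8, 7.29 and 2.81 CPM. Levels of Icam5, Sstr1 and Zdhhc22 are not given here, though their differences of 0.236, 0.238 and 0.243 were smaller than that of Drd2 (0.247). Whether any of these genes shares cells with Slc6a5 was not tested.

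Markers of brainstem and midbrain neurons moved with Slc6a5, Glra1 and Glra3 in part. Of the 24 listed, 15 had a positive and 9 a negative log2 fold change, with a median of 0.11 that was 0.46 without WT female, and Th passed edgeR's test (1.15 ± 0.15, SE). Their summed level was lowest in WT female (156 CPM), then WT male (249.3 CPM), and higher in HT female (303 CPM) and HT male (332 CPM). The 10 Hox genes of that list, which mark position along the hindbrain and cord, were all highest in WT female. Hoxa5 had 2.32 CPM in HT male, 4.13 CPM in WT male, 5.64 CPM in HT female and 15.9 CPM in WT female. Hoxb6 stood at 6.11 CPM in WT female and at 0.246 to 1.69 CPM in the other libraries. The 8 genes of large projection neurons of the deep nuclei and brainstem summed to 3418 CPM in HT male, 3206 CPM in HT female, 2711 CPM in WT male and 2433 CPM in WT female. All 8 had both heterozygotes above both wild types, where 22.1% of all tested genes did. The median log2 fold change of these 8 genes was 0.44, and 0.28 without WT female. Spp1 (0.68 ± 0.10, SE), Nefl (0.53 ± 0.10, SE), Sncg (0.52 ± 0.12, SE) and Nefm (0.36 ± 0.10, SE) had the smallest p of that list. The part of these tissues in the values of Slc6a5, Glra1 and Glra3 was not tested.

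Markers of the cerebellar cells that use GABA and glycine were mixed. The 14 markers of cerebellar GABAergic interneurons summed to 552 CPM in HT male, 558 CPM in HT female, 555 CPM in WT male and 618 CPM in WT female, and 5 had a positive and 9 a negative log2 fold change, with a median of -0.06 that was 0.04 without WT female. Among them Lgi2 had 48.4, 37.2, 33.5 and 14.9 CPM and Klhl1 had 23.1, 21.9, 20.1 and 6.79 CPM in that order, the library order of Slc6a5. Nxph1 was also higher in both heterozygotes and lowest in WT female. Klhl1 and Nxph1 were picked after their values were seen. Of the 14 markers, 3 had both heterozygotes above both wild types (22.1% of all tested genes) and 6 had both below (22.6%). Lgi2 (0.91 ± 0.19, SE) and Htr2a (1.00 ± 0.43, SE) were upward and Kit (-0.32 ± 0.11, SE) and Tfap2b (-0.34 ± 0.13, SE) downward. The groups overlapped for Htr2a, which had 11 counts in WT female. Purkinje markers, 12 of 14 with a negative value (median -0.31, and -0.19 without WT female), summed to 4236, 3983, 4819 and 5492 CPM in the same order. Granule cell markers, 12 of 12 with a negative value (median -0.44, and -0.35 without WT female), summed to 3983, 4461, 5236 and 5991 CPM. DESeq2 called 6 of these 12 lower in the heterozygotes (0.225% of all tested genes were called) and edgeR 0 (0.0198%). In edgeR 10 of 12 had an unadjusted p under 0.05, where 11.7% of all tested genes did. Astrocyte and Bergmann glia markers, 3 of 12 higher, summed to 5156 to 5468 CPM in 3 libraries and 6160 CPM in WT female, where the astrocyte transporter gene Slc6a11 was lowest. Choroid plexus markers, 11 of 12 higher, summed to 2734 CPM in HT male and 1492 to 1583 CPM in the others. Pituitary markers summed to 31.5 CPM in HT female and 3.65 to 6.84 CPM in the others, and Prl was past the genotype threshold.

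**Figure D5:**
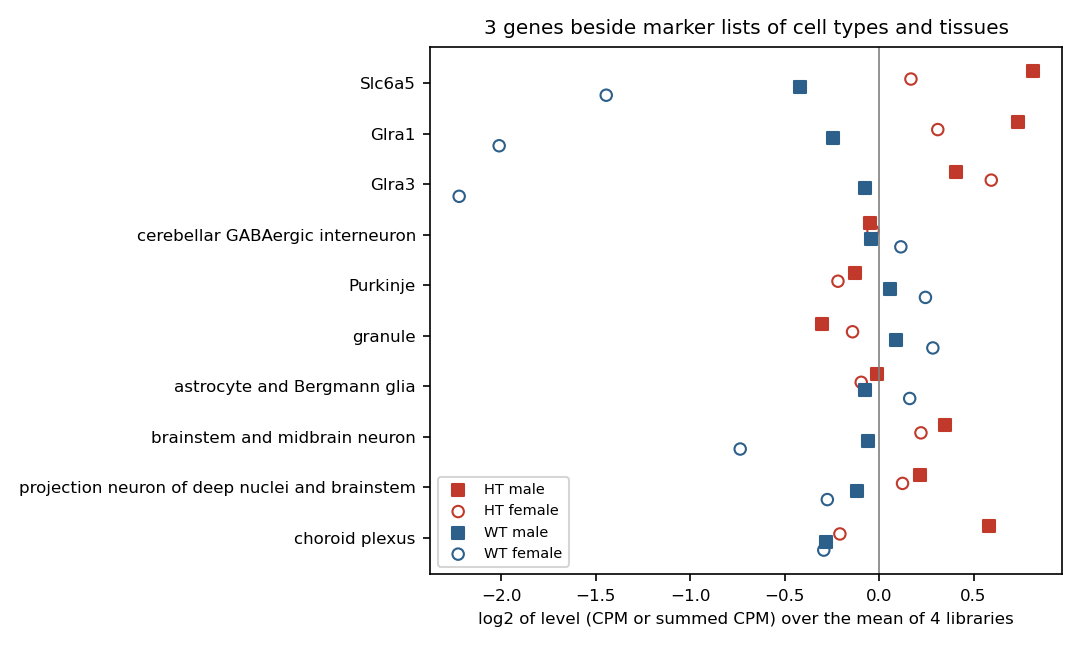
Log2 of the level over its mean in the 4 libraries, for Slc6a5, Glra1 and Glra3 (CPM) and for marker lists (summed CPM), red heterozygote, blue wild type, filled squares male, open circles female. WT female is lowest for the 3 genes and for the brainstem and midbrain list (156 CPM), and highest for the interneuron list (618 CPM), the Purkinje list (5492 CPM), the granule list (5991 CPM) and the glial list (6160 CPM).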

How the data were processed

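The authors deposited raw counts, whole reads per gene symbol, with 1 column for each library. Per the labels' protocols, TruSeq Stranded mRNA libraries shared 1 lane of single-end sequencing with a read length of 100 bases. The submitters' processing notes name STAR, featureCounts, FastQC, edgeR and mm9, without versions. The strand setting of featureCounts was not given in the sources used here.

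Members and lists were chosen with earlier results of these data known. Of 24015 genes, 15117 passed filterByExpr by genotype. They were fitted in edgeR 4.0.16 (R 4.3.3) with TMM factors of 0.999 to 1.00 and a robust quasi-likelihood test on sex and genotype. This leaves 1 residual degree of freedom, the sex by genotype difference. The variance shared over genes added a median of 10.6 degrees of freedom. The p-values are two-sided and Benjamini-Hochberg adjusted over all genes, with a threshold of 0.05. The sex by genotype difference was tested in place of the sex term, which then forms the residual. An SE is the log2 fold change over the root of F. Within-sex log2 ratios (prior count 2) are untested. CPM use library totals, where 3 counts are 0.146 to 0.188 CPM, and exact Poisson intervals (95%) cover counting error. Transcript lengths are those of GENCODE on GRCm38. Replicate numbers follow accession order and pair nothing.

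Alternatives were DESeq2 1.42.0, its size factors, library totals, no filter, 1 CPM in 2 or more libraries, 1 term, prior counts of 0.5 and 5, and each library left out. Union exon length was added after seeing the data. Genes named are the 9 members, up to 4 genes of smallest genotype p per list and any past a threshold, the 6 nearest Slc6a5, and the checks of genotype and sex. Slc6a3, Tph2, Klhl1 and Nxph1 were chosen after their values were seen. One gene that this rule names is not reported here. The fits were tested on simulated data.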

Additional observations from a re-analysis of the deposited data

Results flagged for a closer look

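Gh, the growth hormone gene of the pituitary list, had a genotype ratio that differed between the sexes in edgeR's quasi-likelihood test (adjusted p = 0.0155). Its log2 ratio of heterozygote to wild type was -1.57 in males and 5.69 in females, a difference of 7.26. The counts were 128 in HT female, 1 in WT female, 6 in HT male and 18 in WT male, so the test compares single libraries, with the sex effect as the residual. Prl, another gene of that list, had 310 counts in the same HT female library, 34 in WT female, 6 in HT male and 2 in WT male. Of the 9 glycine and GABA genes 0 had such a difference.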

How the results depend on the processing

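Between genotypes 3 genes in all passed the threshold. That count was 34 with DESeq2, 7 with DESeq2's size factors, 13 with library totals, 553 with no filter on low counts, 0 with 1 CPM in 2 or more libraries, 0 with genotype as the 1 term, and 0 to 2730 with a library left out. Between the sexes it was 9, with 48 under no filter, 5 with sex as the 1 term, and 4 to 609 with a library left out. For the sex by genotype difference it was 3, and 6 with no filter. The cause was not tested. With each library left out in turn, genotype values that turned sign ranged over -0.055 to 0.52 for Gad2 (negative without WT female), -0.22 to 0.24 for Glrb (negative without WT female and without HT male) and -0.0012 to 0.12 for Gphn (negative without HT female). Glrb was also at -0.0065 with genotype as the 1 term. Sex values that turned sign ranged over -0.0999 to 0.028 for Slc6a9, -0.25 to 0.12 for Slc32a1, -0.14 to 0.012 for Gad1, -2.39 to 0.40 for Glra3 and -0.037 to 0.10 for Gphn. The genotype values of Slc6a5, Glra1, Glra3, Slc32a1, Slc6a9 and Gad1 had 1 sign in the alternatives run. The adjusted p of Slc6a5 in edgeR was 0.0919 with 1 CPM in 2 or more libraries and 0.361 with genotype as the 1 term. With 11 counts of Glra3 in WT female, depth limits its fold change. No paired analysis was possible because the labels carry no replicate numbers, beyond the sex term, which already sets HT beside WT within each sex.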
